A study of Homo sapiens with 4 samples.

Results

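The long non-coding RNA genes MIR34AHG, LNCTAM34A, PVT1, LINC-PINT and NEAT1 were examined for p53 ChIP-seq peaks in H1299, an established human non-small-cell lung carcinoma cell line that lacks p53 of its own. A peak was assigned to a gene when its summit, the base of strongest signal, lay inside the GRCh38 RefSeq gene or within 10 kb of it. By this rule 4 of the 11488 analysed peaks were members, and a peak shared by overlapping genes was counted once. MIR34AHG and LNCTAM34A overlap, so the 5 genes form 4 loci. The cells had the genotype p53-/- in all 4 libraries and expressed either wild-type p53 (p53WT, libraries 1 and 2) or the form named CASM34 (libraries 1 and 2). The series title concerns cancer-associated synonymous mutations, which change a codon and not the amino acid. All libraries were precipitated with the p53 antibody DO-1, and no other treatment is named. The sources used here do not give the vector, its promoter or whether the cells were 1 clone. Nothing states that the 2 libraries of a form came from separate cultures, so their spread may be technical. The lists hold no expression values, and H1299 identity was not checked here.

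p53 is a transcription factor that binds a response element made of paired 10-base units, called half-sites, and switches on genes of cell cycle arrest, apoptosis and repair. Among its classic non-coding targets is miR-34a, a microRNA that lowers the output of genes needed for proliferation and survival. It is cut from the transcript of MIR34AHG. LNCTAM34A, also called GUARDIN, starts beside MIR34AHG and runs on the opposite strand, and has been described as a p53-responsive RNA that protects genome integrity. PVT1 lies next to the oncogene MYC and has a known p53-responsive start. LINC-PINT is a p53-induced RNA linked to Polycomb silencing, and NEAT1 is the scaffold RNA of nuclear paraspeckles and is also p53-inducible.

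The mature miR-34a strands are shown first, since the MIR34AHG locus was the one with a peak for both forms of p53. Capitals mark the seed, bases 2 to 8 from the 5′ end, which pairs with target RNAs. Sequences are from RefSeq (GRCh38.p14), 5′ to 3′.
hsa-miR-34a-5p: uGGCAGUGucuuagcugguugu
hsa-miR-34a-3p: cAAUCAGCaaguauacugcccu
hsa-miR-449a: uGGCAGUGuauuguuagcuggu
hsa-miR-449b-5p: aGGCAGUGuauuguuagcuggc
hsa-miR-34b-5p: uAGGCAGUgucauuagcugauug
Of 2545 mature microRNAs in the set used, 3 carry the miR-34a-5p seed, the others being miR-449a and miR-449b-5p. The set holds miR-34c-3p but no entry for miR-34c-5p, so miR-34c-5p was not compared and the count does not cover it. In miR-34b-5p the 7 bases of the miR-34a-5p seed begin at base 3, shifted by 1 position. The miR-34a hairpin lies inside MIR34AHG on chromosome 1 (9151668 to 9151777, minus strand).

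The genomic windows around the starts of LNCTAM34A and MIR34AHG are shown because both peaks of the locus lie over them. Each runs from 250 bases before to 50 bases after the RefSeq start, and capitals mark exact matches to the p53 half-site consensus, which reads the same on both strands.
LNCTAM34A, chr1:9181954-9182253, plus strand: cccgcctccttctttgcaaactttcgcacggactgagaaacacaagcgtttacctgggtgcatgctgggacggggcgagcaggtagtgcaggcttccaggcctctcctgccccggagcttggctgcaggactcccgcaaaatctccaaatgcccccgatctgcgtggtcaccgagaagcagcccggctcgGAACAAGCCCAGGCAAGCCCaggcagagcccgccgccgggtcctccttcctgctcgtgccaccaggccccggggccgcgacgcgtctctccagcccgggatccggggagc
MIR34AHG, chr1:9182289-9182588, minus strand: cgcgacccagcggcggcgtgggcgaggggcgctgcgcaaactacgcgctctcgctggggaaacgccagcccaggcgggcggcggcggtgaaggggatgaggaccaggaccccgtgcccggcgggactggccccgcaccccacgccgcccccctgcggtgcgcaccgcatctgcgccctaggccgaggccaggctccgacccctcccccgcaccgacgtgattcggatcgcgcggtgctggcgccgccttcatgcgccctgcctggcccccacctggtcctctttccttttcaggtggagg
The LNCTAM34A window holds 2 half-sites with 0 bases between them, a full consensus response element at 9182144 to 9182163, whose first base lies 60 bases before the start of LNCTAM34A. The MIR34AHG window holds none, but it stops 50 bases after the start, at 9182289. The element lies past that point and inside MIR34AHG, which spans 9148011 to 9182338. Such windows were given for 3 of the 5 genes, and the set used had none for PVT1 and NEAT1.

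The 4 peak lists differed by library number more than by form of p53. On chromosomes 1 to 22, X and Y the p53WT lists held 1604 (library 1) and 4961 (library 2) peaks. The CASM34 lists held 1712 and 3211, and read depth is unknown. Of 22180 RefSeq non-coding genes, the 10 kb rule called 7.45% in p53WT 2 and 4.68% in CASM34 2, but 0.938% in p53WT 1 and 1.12% in CASM34 1. Every value of a peak below is the authors' own: the fold is signal over background, and −log10 q measures the evidence, with 1.31 the smallest in each list. A percentile is the share of the same list at or below the peak by −log10 p. Percentiles from lists of unlike length describe those lists and show no change between them. A locus without a listed peak is one where none was called, not one shown to be free of p53.

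All 4 member peaks came from the libraries numbered 2. p53WT 2 called 2 of the 5 genes, MIR34AHG and LNCTAM34A, through 1 shared peak, against 7.58% of 18303 lncRNA genes. CASM34 2 called these and also PVT1 and LINC-PINT, 4 of 5 genes through 3 peaks, against 4.55% of lncRNA genes. p53WT 1 and CASM34 1 called 0 of 5, against 0.738% and 0.951%. An outcome of 0 of 5 is near that background. A longer gene has more room for a summit, so each member also has the share of its length class. For LNCTAM34A, under 10 kb long, non-coding genes of that class were called in 6.99% in p53WT 2 and 4.81% in CASM34 2, and in 1.07% and 1.23% in p53WT 1 and CASM34 1. For MIR34AHG and NEAT1, in the class of 10 to 100 kb, the shares were 7.33% in p53WT 2 and 4.02% in CASM34 2, and 0.703% and 0.976% in p53WT 1 and CASM34 1. NEAT1 had no member peak in any list.

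**Figure D1:**
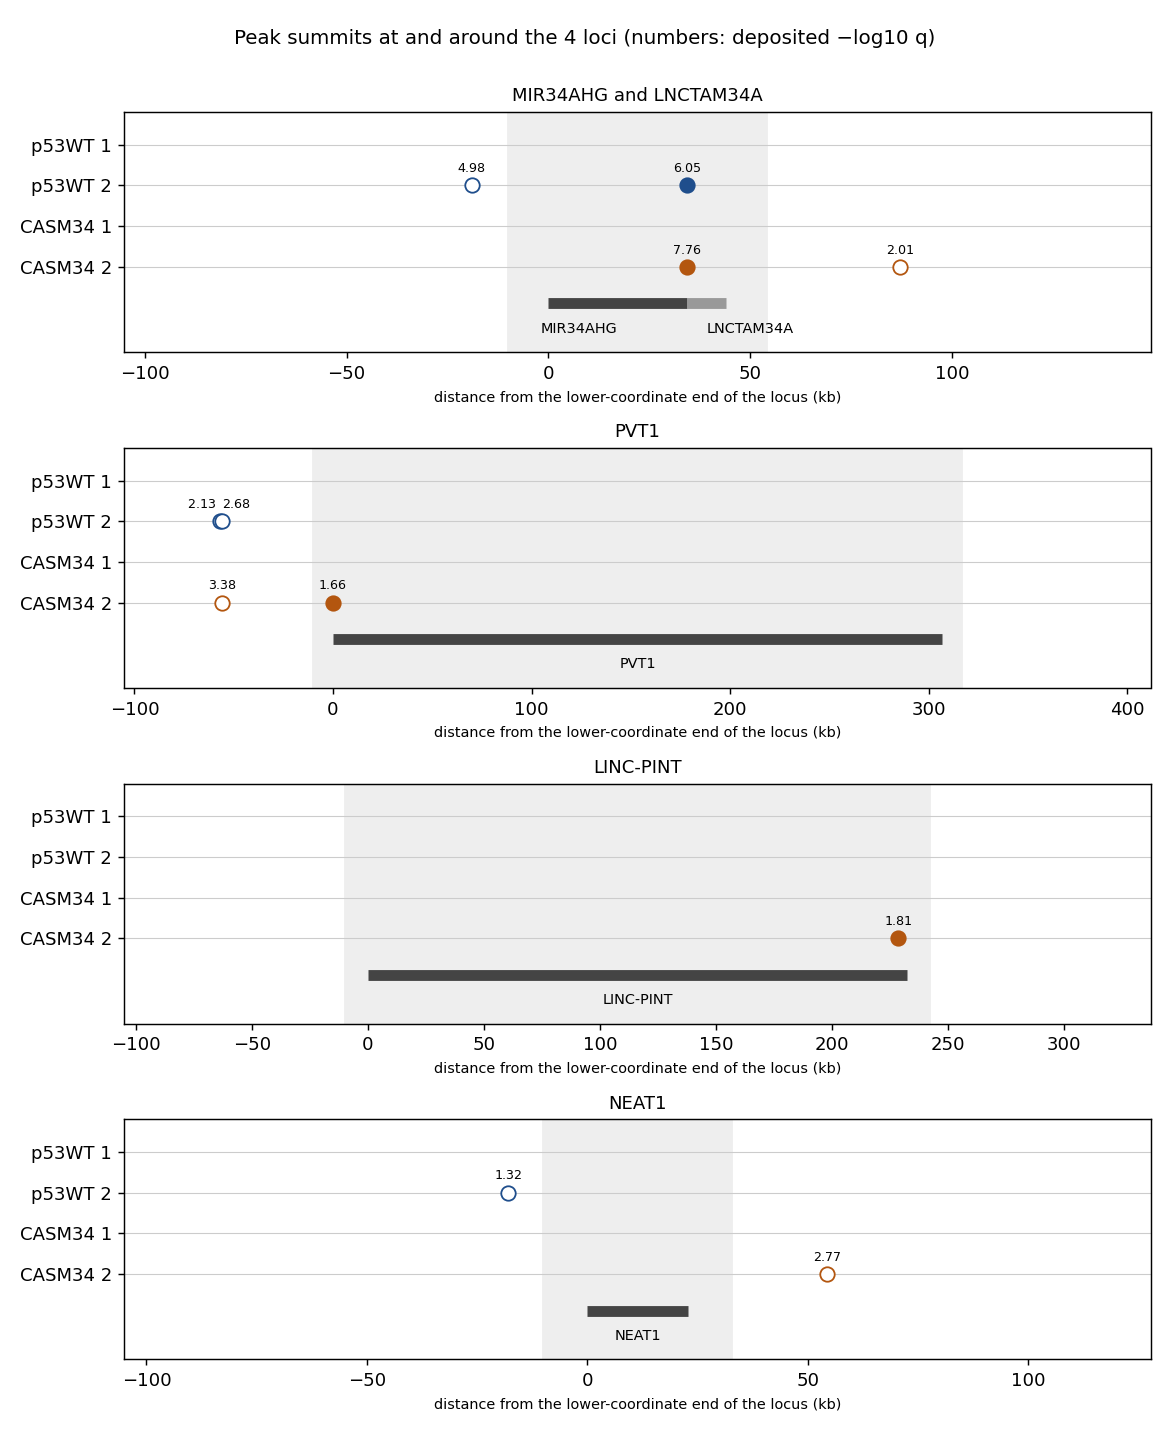
Summits of the 4 libraries (rows) at the 4 loci (panels), by distance in kb from the lower-coordinate end of each locus; grey marks the gene and its 10 kb flanks, filled points are member peaks, open points lie outside the limit, and numbers are deposited −log10 q. The miR-34a locus is the one panel with filled points for both forms of p53, and the rows of the libraries numbered 1 are empty.

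The miR-34a locus carried a well-ranked peak for wild-type p53 and for CASM34 at the same place. In p53WT 2 the peak spanned 9182159 to 9182367 on chromosome 1 (209 bp), with a summit at 9182270, a fold of 5.64 and a −log10 q of 6.05. In CASM34 2 it spanned 9182019 to 9182700 (682 bp), with a summit at 9182243, a fold of 5.79 and a −log10 q of 7.76. The p53WT 2 peak lay wholly within the CASM34 2 peak, and the summits were 27 bp apart. Among the 1441 pairs of overlapping peaks between these lists the median summit distance was 26 bp, close to the distance at this locus. The p53WT 2 peak stood at percentile 81.7 (rank 910 of 4961) and the CASM34 2 peak at percentile 77.1 (rank 737 of 3211). By fold they stood at percentiles 77.0 and 72.0. p53WT 1 and CASM34 1 called nothing here, and their nearest summits lay 2330.7 and 2330.6 kb away, at DISP3.

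Both summits fell in the 135 bp that MIR34AHG and LNCTAM34A share (9182204 to 9182338), between the starts of these opposite-strand genes. The p53WT 2 summit lay 68 bp downstream of the MIR34AHG start and 66 bp downstream of the LNCTAM34A start. The CASM34 2 summit lay 95 bp and 39 bp downstream of them. A peak here cannot be given to 1 of the 2 genes. The miR-34a hairpin itself lay 30.5 kb from both summits, toward the other end of the host gene.

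**Figure D2:**
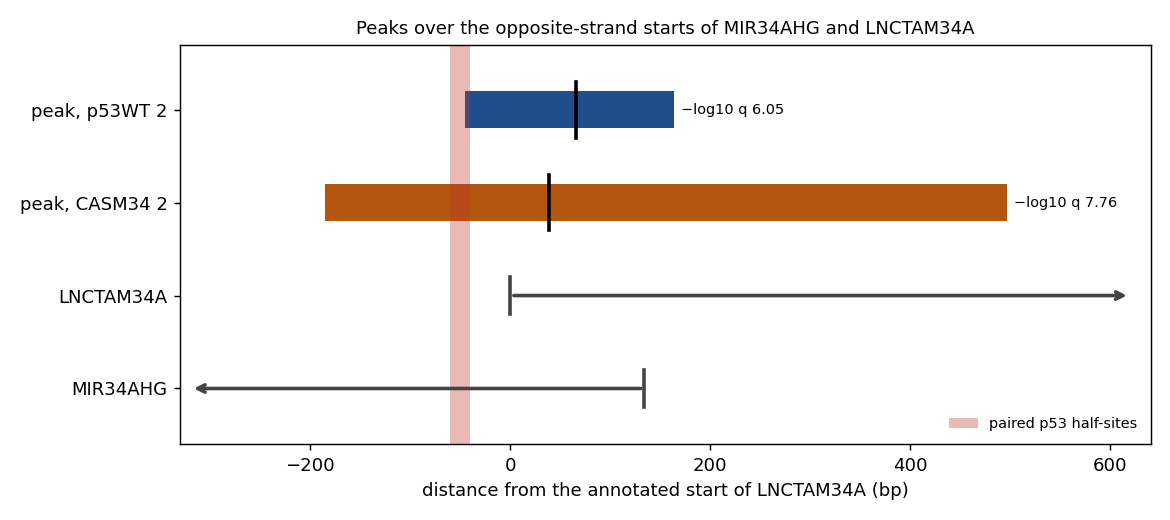
The peaks of p53WT 2 and CASM34 2 (bars; black line, summit) by distance in bp from the start of LNCTAM34A, with arrows from the start of each gene in the direction of transcription and a red band at the paired p53 half-sites. Both summits lie between the starts, and the band lies inside the CASM34 2 peak and at the edge of the p53WT 2 peak.

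The response element printed above lay under or beside both peaks. The CASM34 2 peak covered all 20 of its bases, with the summit 80 bp away. The p53WT 2 peak began within the element and covered 5 of the 20 bases, with the summit 107 bp away. An exact pair of half-sites, 0 to 13 bases apart, was rare: 10 of 34943 RefSeq start windows of 300 bases held it (0.0286%). At least 1 exact half-site was in 6.64% of windows. Allowing letters that differ from the consensus, the best pair in the MIR34AHG window, which stops short of this element, was 4 letters off. The best pair was also 4 letters off in each of the 4 LINC-PINT windows. Of all windows, 84.2% had a pair at least as close.

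The 10 windows with an exact pair were examined after the counts were seen. A p53WT 2 peak met 2 of the 10 and a CASM34 2 peak met 1, while these lists met 3.17% and 1.76% of all 34943 windows. The p53WT 1 and CASM34 1 lists met only 14 and 21 of all windows (0.0401% and 0.0601%), so their lack of a peak over the 10 says little. PURPL, a p53-induced lncRNA, DDB2, a DNA damage recognition gene, and PTCHD4, a Hedgehog pathway inhibitor, are p53 targets, and no library had a peak over their windows. Their nearest summits in p53WT 2 lay 271.1, 193.8 and 176.9 kb from the start, and in CASM34 2 6709.5, 28.9 and 633.5 kb. MCC, a colorectal tumour suppressor candidate, had a peak over its window in p53WT 2 and in no other library. LNCTAM34A was the one window of the 10 with a peak in both p53WT 2 and CASM34 2. Windows under peaks were rich in G and C. The median was 72.0% in the 1106 windows that met a p53WT 2 peak and 72.7% in the 614 that met a CASM34 2 peak, against 58.7% in all windows. The LNCTAM34A window had 67.0% and the MIR34AHG window 75%. At least 1 exact half-site was in 4.97% and 3.75% of the windows under p53WT 2 and CASM34 2 peaks, against 6.64% of all. An exact pair was in 0.181% and 0.163% of them (2 and 1 windows), against 0.0286% of all, and these few windows allow no reading of the shares. The part of base composition in the calls was not tested.

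Calls at both libraries numbered 2 and at neither numbered 1 were made for 395 non-coding genes, 1.78% of those tested, and the miR-34a locus ranked high among them. By the lower of its percentiles, 77.1, MIR34AHG was exceeded by 9 of the 395 (2.28%), where the median gene had 30.5. These are counts of genes and not of separate places, since neighbours with the same peak count apart. LRRK2-DT and LINC01779, for example, both had 77.5. Of 264 opposite-strand pairs of lncRNA genes with starts within 1 kb of each other, a set defined after the peaks were seen, 2.65% had a summit within 1 kb of a start in p53WT 2 and 1.89% in CASM34 2, with 0.379% and 0.0% in p53WT 1 and CASM34 1. Only 3 pairs had one in both, MIR34AHG with LNCTAM34A among them. The 5 genes most like MIR34AHG, by the sum over the 4 libraries of differences in the percentile of the best peak, rested on 2 places. LRRK2, a kinase gene, with LRRK2-DT and LINC01779, differed by 2.94 points, and DNAJC25 with the read-through gene DNAJC25-GNG10 by 3.7 points. They were drawn from 1379 genes called in the same libraries.

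The members PVT1 and LINC-PINT had only weak peaks, each in CASM34 2 alone. PVT1 (chromosome 8, 127794524 to 128101256) had a peak of 209 bp with its summit at 127794349, 175 bp outside the lower-coordinate end of the gene. Its fold was 3.35 and its −log10 q 1.66, at percentile 8.19 (rank 2949 of 3211). PVT1 also hosts 4 microRNA genes, of which MIR1204 was the closest to that end and 1613 bp from the summit. No summit lay within the 306.7 kb of the gene itself in any library.

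Outside the limit the next summits were inside MYC, the growth-promoting transcription factor gene beside PVT1. They lay 55.8 kb from PVT1 in p53WT 2 (127738771, −log10 q 2.68) and 55.7 kb in CASM34 2 (127738812, −log10 q 3.38). Both forms of p53 thus had a listed peak in MYC, and only the CASM34 2 list had one at the PVT1 end. The nearest summits in p53WT 1 and CASM34 1 were 6134.4 and 10105.2 kb away.

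LINC-PINT (chromosome 7, 130877562 to 131109925) had a peak of 265 bp in CASM34 2 from 131106159 to 131106423. The summit at 131106211 was inside the gene, 819 bp downstream of an annotated start at 131107030 and 3714 bp from the outermost start. MKLN1, a protein-coding gene, lay 3.9 kb from the summit. Its fold of 3.65 and −log10 q of 1.81 placed it at percentile 12.3 (rank 2817 of 3211). The next summit in p53WT 2 was 218.1 kb outside LINC-PINT. With MIR34AHG and LNCTAM34A, LINC-PINT was thus among the lncRNA genes with a summit within 1 kb of an annotated start in CASM34 2. Such genes were 2.15% of 11462. PVT1 and NEAT1 had no start in the set used and could not be scored by this rule. In p53WT 2, where MIR34AHG and LNCTAM34A met this rule, the share was 3.7%, and in p53WT 1 and CASM34 1 it was 0.096% and 0.192%. Of the 992 non-coding genes of 100 kb and over, which include PVT1 and LINC-PINT, 8.06% were called in CASM34 2 and 14.7% in p53WT 2. In p53WT 1 and CASM34 1 the shares were 0.907% and 0.806%. CASM34 2 alone called 34 genes of this length (3.43%), PVT1 and LINC-PINT among them, and 2.11% of all non-coding genes.

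**Figure D3:**
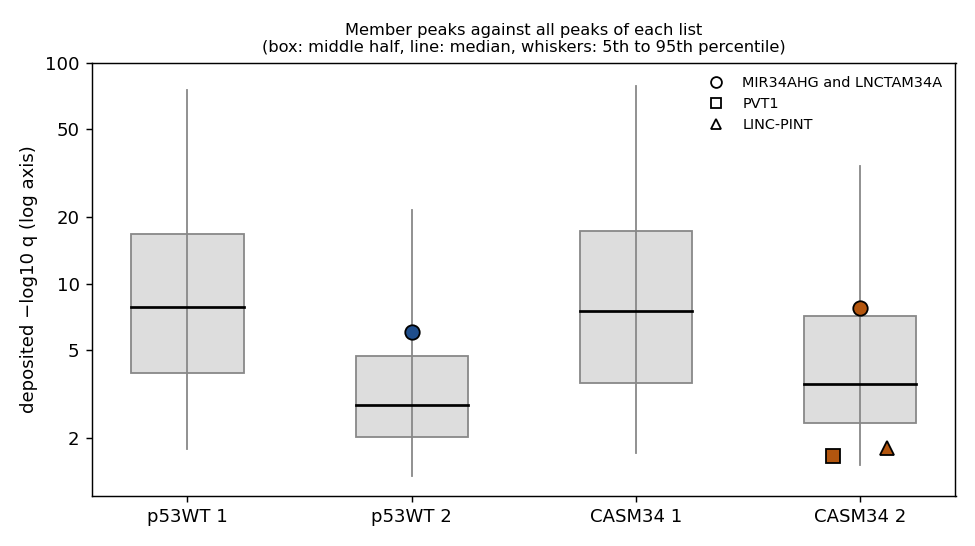
Deposited −log10 q (log axis) of the member peaks (symbols) and of all peaks in each of the 4 lists (box, 25th to 75th percentile; line, median; whiskers, 5th to 95th percentile). The miR-34a peaks lie above the box in p53WT 2 and CASM34 2, and the PVT1 and LINC-PINT peaks lie below it in CASM34 2.

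NEAT1 (chromosome 11, 65422798 to 65445540) had no summit within 10 kb in any library. The nearest in p53WT 2 was 18.0 kb away at FRMD8, with a −log10 q of 1.32 at percentile 0.786, almost the weakest of its list. In CASM34 2 the nearest was 31.6 kb away on the other side, with a −log10 q of 2.77. In p53WT 1 and CASM34 1 it was 298.5 and 516.9 kb away. Near the miR-34a locus, the first summits beyond the limit were 19 kb away in GPR157 in p53WT 2 (−log10 q 4.98) and 43.0 kb away in H6PD in CASM34 2 (−log10 q 2.01). These neighbours were called in 1 list each within 50 kb, while the summits between MIR34AHG and LNCTAM34A were called in both.

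The forms of p53 did not differ beyond the spread of their libraries in how many loci had a peak. The number of loci was 0 (library 1) and 1 (library 2) for p53WT, and 0 and 3 for CASM34. It averaged 0.5 ± 0.707 (SD, n = 2) for p53WT and 1.5 ± 2.12 (SD, n = 2) for CASM34, and the groups overlapped. The exact two-sided permutation p was 1, where 2 libraries against 2 can give no p below 0.333. Member peaks had the same counts and the same p. p53WT minus CASM34 was -1 loci, which came from the libraries numbered 2, where it was -2, while within number 1 it was 0. Without CASM34 2 the difference turned to 0.5, and it was 0 once peaks under a −log10 q of 3 were left out, as PVT1 and LINC-PINT then had no peak.

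**Figure D4:**
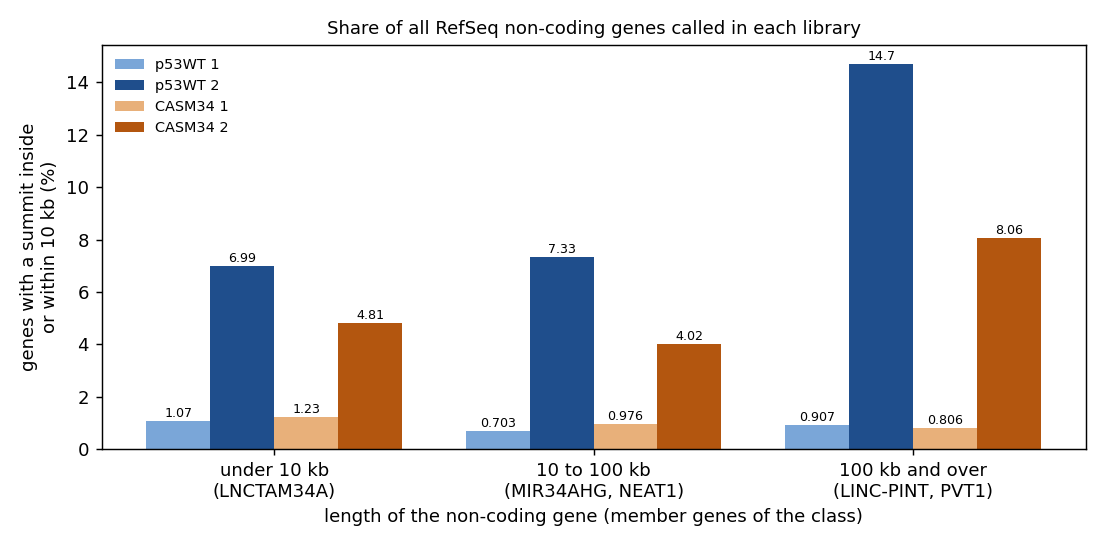
Share (%) of all RefSeq non-coding genes with a summit inside or within 10 kb, by gene length class (groups of bars) and library (colours), with the member genes of each class named under it. The libraries numbered 2 call 4.02% to 14.7% of a class, and those numbered 1 call 0.703% to 1.23%.

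Other non-coding genes of the p53 response, scored together with MIR34A and MIR1204 from inside members, were called at shares near the background. Of 39 further entries 38 matched RefSeq, 1 of them by an older symbol. The 10 kb rule called 4 of the 38 (10.5%) in p53WT 2, where 7.45% of all non-coding genes were called, and 3 of the 38 (7.89%) in CASM34 2, where 4.68% were. It called 0 in either library numbered 1, where the background was 0.938% and 1.12%. PANDAR and DINOL, lncRNAs beside the cell cycle inhibitor gene CDKN1A, were called in both p53WT 2 and CASM34 2. PANDAR and DINOL shared 1 best peak in each list. Its −log10 q was 3.39 at 36678890 in p53WT 2 and 10.7 at 36676300 in CASM34 2. These summits lay on opposite sides of DINOL, 331 bp (p53WT 2) and 1309 bp (CASM34 2) from the gene, and so not at the same place. DLEU1 and DLEU2, a gene pair of the microRNA-15/16 region, were called in p53WT 2 through 1 shared peak (50081385, −log10 q 2.82). MIR34A and MIR1204 lie inside the members MIR34AHG and PVT1, so they are not separate from them. MIR34A was scored at its hairpin, 30.5 kb from the member summits in its host gene, and was called in no library. MIR1204 was called in CASM34 2 through the PVT1 peak. The 7 calls thus share 4 best peaks. MIR34B and MIR34C, the other miR-34 genes, had no summit nearer than 213.2 kb in any library.

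LNCTAM34A, PVT1 and NEAT1 carry RefSeq aliases of 1 numbered series, which 16 genes share, and these were read as a further list after results were known. p53WT 2 called 5 of 16, CASM34 2 called 5 of 16, and the other libraries 0 of 16, against the 7.58%, 4.55%, 0.738% and 0.951% of lncRNA genes given above. These calls include member peaks already described, LNCTAM34A in both lists and PVT1 in CASM34 2. The list was found through the members, so its counts are no separate evidence. LNCTAM34A, FAM169A-AS1, SNHG10 and LINC03036 were called in both p53WT 2 and CASM34 2. The LNCTAM34A summits had the smallest distance between the libraries, 27 bp. FAM169A-AS1 had summits 147 bp apart, with a −log10 q of 2.35 in p53WT 2 and 5.45 in CASM34 2. SNHG10, a small nucleolar RNA host gene, had summits 557 bp apart, with 1.82 and 3.27. The summits of the best LINC03036 peaks were 246.5 kb apart, at opposite ends of the gene, and so were different peaks. Only the best peak of each list was compared for these genes. UNC5B-AS1 was called in p53WT 2 alone, with a −log10 q of 1.35. On this list LNCTAM34A had the highest −log10 q in both p53WT 2 and CASM34 2.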

How the data were processed

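p53 ChIP-seq was deposited as 1 peak list per library for 2 p53WT and 2 CASM34 libraries. Per the submitters' processing notes, Trim Galore, Bowtie2, bedtools and build GRCh38 were used. The sources used here do not give the peak caller, control or threshold. Each deposited row gives a fold (ratio over background), −log10 p, −log10 q (smallest 1.31, a q of 0.05) and a score that follows the −log10 q. Replicates were not pooled, and depth is unknown.

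Rows that repeat an interval were merged, keeping the best summit, and chromosomes 1 to 22, X and Y were kept. Summits were set against genes of the RefSeq table (GRCh38.p14), and non-coding means its lncRNA, microRNA and other RNA genes. Exons were not used. Starts and sequences came from RefSeq tables. No genome sequence was used, so peaks of PVT1 and LINC-PINT have none shown. Counts per library were compared with an exact permutation test in Python 3.11.15. The gene calls were tested on simulated peaks.

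Members, lists, tests and alternatives were chosen with earlier results of these data known. Named were the members, list genes called in any library, the nearest protein-coding gene of each member peak, and the 5 genes most like MIR34AHG; genes named otherwise were chosen after their values were seen.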

Additional observations from a re-analysis of the deposited data

How the results depend on the processing

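The miR-34a locus had a peak in 2 libraries under all 9 alternatives run for it, of which the distance of 1 kb to an annotated start was chosen after seeing the data. The positions, −log10 q values and ranks of its peaks fixed this outcome in advance, so it is no further evidence. LINC-PINT and PVT1 depended on the threshold. LINC-PINT went from 1 library to 0, and PVT1 from 1 to 0, when peaks under a −log10 q of 3, or of 5, were left out, and with lists of equal length (1604 peaks). PVT1 was also at 0 when the summit had to lie inside the gene. NEAT1 went from 0 to 2 libraries within 50 kb. The difference of -1 loci, and of -1 member peaks, became 0 at both thresholds of −log10 q and with lists of equal length. The PVT1 and LINC-PINT peaks of CASM34 2 were then left out. Leaving out 1 library gave values between -2.5 and 0.5 for both, and the value of 0.5 came without CASM34 2. With the library number as a replicate block both differences stayed -1 (exact sign-flip permutation p = 1, n = 2 pairs, smallest possible 0.5). The labels give no shared culture, batch or day for a number, so whether the numbers pair the libraries is unknown. Over 59679 RefSeq genes the calls of same-numbered libraries deviated from their group means with a correlation of 0.25. That is above the 0.1 taken as the mark of a block, and the main comparison used no block. Depth is unknown, so the absence of a peak sets no limit on binding.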
